A study of Mus musculus with 71 samples.

Results

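The tail bud of the wild-type mouse embryo was compared with the rest of the same stage of embryo, that is, with the tissue left after tail bud and heart had been dissected away. The members are the 3 libraries titled as wild-type tail bud and the 3 titled as wild-type rest of embryo, 6 of the 71 libraries of the series. All 6 came from C57BL/6 embryos with an intact miR-17~92 locus at embryonic day 9.5, with 20 to 22 somites. The labels do not say how many embryos went into a library. The series also holds 3 wild-type heart libraries and the same 3 tissues from 7 mutant genotypes of the locus, which encodes a cluster of microRNAs. These are labelled Full-KO (the whole cluster removed), Delta_17 (without miR-17 and miR-20a), Delta_18 (without miR-18a), Delta_92 (without miR-92a-1), Delta_19 (without miR-19a and miR-19b-1), Delta_17_18 (without miR-17, miR-20a and miR-18a) and Delta_17_18_92 (without miR-92a-1 as well). The 41 tail bud and rest-of-embryo libraries of these mutants, in the same strain and at the same stage, gave the comparison again in RNA that the wild-type comparison did not use.

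The tail bud is the growth zone at the posterior end of the embryo. Axial progenitors in it, among them neuromesodermal cells, feed the spinal cord and the presomitic mesoderm, and the presomitic mesoderm is cut into somites in time with a molecular oscillator, the segmentation clock. WNT and FGF signals are known to be high posteriorly and to hold cells in the unsegmented state, retinoic acid made by the somites opposes them, and the Hox genes are switched on one after another along each cluster as the axis lengthens. The rest of the embryo at this stage holds the brain, the trunk neural tube, the formed somites and the pharyngeal arches. How the limb fields and the gut were divided between the dissected parts is not stated in the labels. All libraries are of bulk tissue, so more cells of a type and more RNA per cell cannot be told apart.

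Total counts ran from 15134178 to 24653471 in the tail bud libraries and from 18984391 to 21981291 in the rest-of-embryo libraries. Levels are given as CPM, read counts scaled to effective library size, and libraries 1, 2 and 3 are named in that order. Tail bud library 3 was the shallowest and stood apart from the others: chi-square per degree of freedom over genes was 21.0 and 24.6 against tail bud libraries 1 and 2, which differed from each other by 8.66, while the 3 pairs of rest-of-embryo libraries gave 4.35 to 7.79. Its level of Xist, the RNA made from the inactive X chromosome, was 49.5 CPM beside Y-linked Ddx3y at 66.8 CPM. Tail bud library 2 had 2036 CPM of Xist with 0.234 CPM of Ddx3y, and tail bud library 1 had 3.38 CPM of Xist with 72.1 CPM of Ddx3y. Library 3 also had the most of the heart muscle myosin Myh6 among tail buds, 5.11 CPM against 0.495 and 1.13. What part these differences play in the results was not tested, and each count of genes was also made without each library in turn. The 13 listed markers of visceral endoderm and yolk sac, an extraembryonic tissue, summed to 9.24, 10.5 and 9.64 CPM in tail bud, against 532, 160 and 59.9 CPM in the rest of the embryo.

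Of 37620 genes in the table, 16922 passed the low-count filter and were tested, and 5051 (29.8%) differed between tail bud and rest of embryo at an adjusted p under 0.05: 2233 (13.2%) were higher in tail bud and 2818 (16.7%) lower. At the 2-fold rule, which adds a log2 fold change of at least 1 in size, 620 (3.66%) were higher and 1312 (7.75%) lower. The median log2 fold change (tail bud minus rest, as everywhere below) was 0.01 over all genes tested and its median size among the genes called was 0.71. Of the 5051 genes, 4976 had every tail bud library on one side of every rest-of-embryo library. Over all genes tested, 20.4% had every tail bud library above and 23.3% every tail bud library below. These shares are the background for the counts of gene lists that follow.

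The genes that define the posterior growth zone rose steeply. Brachyury (T), the T-box factor of the primitive streak and tail bud mesoderm, had 260.4, 216 and 239 CPM in tail bud, against 5.13, 4.42 and 4.79 CPM in the remaining tissue (5.64 ± 0.21, adjusted p = 1.42e-08). The means differed 49.9-fold and the libraries did not overlap. The homeobox factor Cdx2, which drives axis elongation and posterior Hox expression, stood at 195 ± 25.1 CPM in tail bud and 4.20 ± 0.353 CPM in the rest (SD, n = 3 each; 5.54 ± 0.21, adjusted p = 1.52e-08). Cdx4, which acts with it, had 289, 213 and 232 CPM in tail bud, against 4.35, 1.91 and 1.84 CPM in the rest (6.53 ± 0.44, adjusted p = 2.25e-05). Cdx1, the remaining member of the family, had 9.32, 7.98 and 6.43 CPM in tail bud and 5.47, 4.55 and 4.71 CPM in the rest (0.70 ± 0.18, adjusted p = 0.00908), and without rest-of-embryo library 2 it missed the threshold (adjusted p = 0.0504, and 0.000576 to 0.0504 over all alternatives). All 3 Cdx genes were higher in every tail bud library, and the gap was small for Cdx1. Nkx1-2, a marker of neuromesodermal progenitors, had 111, 109.8 and 82.3 CPM in tail bud, against 4.89, 4.47 and 3.55 CPM (4.56 ± 0.19, adjusted p = 5.97e-09).

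Presomitic mesoderm is marked by Msgn1, a basic helix-loop-helix factor downstream of WNT signalling, and by Tbx6, the T-box factor that turns progenitors away from a neural fate. Msgn1 was found almost only in tail bud, at 69.5, 34.1 and 49.2 CPM, with 3341 counts over the 3 tail bud libraries and 2 over the 3 libraries of the rest, a ratio of 1710 (exact 95% interval 473 to 14126, counting error only; adjusted p = 3.11e-06). Tbx6 had 85.7, 87.1 and 80.0 CPM in tail bud, against 2.15, 0.936 and 1.03 CPM in the rest (5.97 ± 0.28, adjusted p = 6.44e-08). Hes7, a transcriptional repressor at the core of the segmentation clock, had 9.86, 27.2 and 29.0 CPM in tail bud, against 0.391, 0.340 and 0.300 CPM (5.98 ± 0.50, adjusted p = 6.69e-06). The tail bud libraries lay above the rest for each of these genes, and tail bud library 1 was the lowest for Hes7 and the highest for Msgn1.

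The promoters of T, Msgn1 and Hes7 are shown because these genes mark the progenitors, the presomitic mesoderm and the clock. Each line gives the 250 bases before the annotated start, 5′ to 3′ on the gene's strand, from RefSeq on GRCm38.p6: chr17:8434173-8434422 on the plus strand for T, chr12:11208949-11209198 on the minus strand for Msgn1 and chr11:69120203-69120452 on the plus strand for Hes7. Capitals mark matches on either strand to the T-box core AGGTGT, the TCF/LEF site of WNT-responsive promoters CTTTGAT, the RBPJ core of Notch-responsive promoters TGGGAA and the CDX site TTTATNG.
T: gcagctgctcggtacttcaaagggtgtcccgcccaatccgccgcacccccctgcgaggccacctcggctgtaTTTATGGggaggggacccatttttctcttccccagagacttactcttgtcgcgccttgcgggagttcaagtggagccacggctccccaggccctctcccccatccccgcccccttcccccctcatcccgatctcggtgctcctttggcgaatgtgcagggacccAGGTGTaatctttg
Msgn1: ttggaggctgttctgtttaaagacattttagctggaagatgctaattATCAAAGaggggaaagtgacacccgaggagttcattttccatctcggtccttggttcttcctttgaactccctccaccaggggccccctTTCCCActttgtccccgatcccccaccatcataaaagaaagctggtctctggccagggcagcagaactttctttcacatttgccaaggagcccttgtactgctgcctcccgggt
Hes7: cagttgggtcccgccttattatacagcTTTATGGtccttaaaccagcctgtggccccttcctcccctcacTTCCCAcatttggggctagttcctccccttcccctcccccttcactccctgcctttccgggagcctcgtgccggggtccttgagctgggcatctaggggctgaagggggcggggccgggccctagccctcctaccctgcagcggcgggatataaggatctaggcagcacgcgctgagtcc

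In these windows T held a CDX match that began 178 bases before the start and a T-box match 14 bases before it. Msgn1 held a TCF/LEF match at 203 bases and an RBPJ match at 114 bases before the start, both on the opposite strand. Hes7 held a CDX match at 223 bases and an RBPJ match, on the opposite strand, at 180 bases before the start. Of the 42 members of the progenitor, presomitic, WNT and FGF lists that rose at least 2-fold, 32 had a promoter in the table. Over 300 bases (250 before to 50 after the start), 6 of these 32 (18.8%) held the T-box core, against 13.9% of all 27025 promoters. The CDX site was in 7 (21.9%), against 11.3%. The TCF/LEF site was in 2 (6.25%), against 3.72%, and the RBPJ core in 7 (21.9%), against 25.5%. Many members, among them Cdx2, Nkx1-2, Dll1 and Dll3, held no match to any of these motifs in that window. The 3 promoters shown, each with matches to 2 motifs, are therefore not typical of the 32. None of these motifs contains another. A match describes letters in a window, not a bound site.

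**Figure D1:**
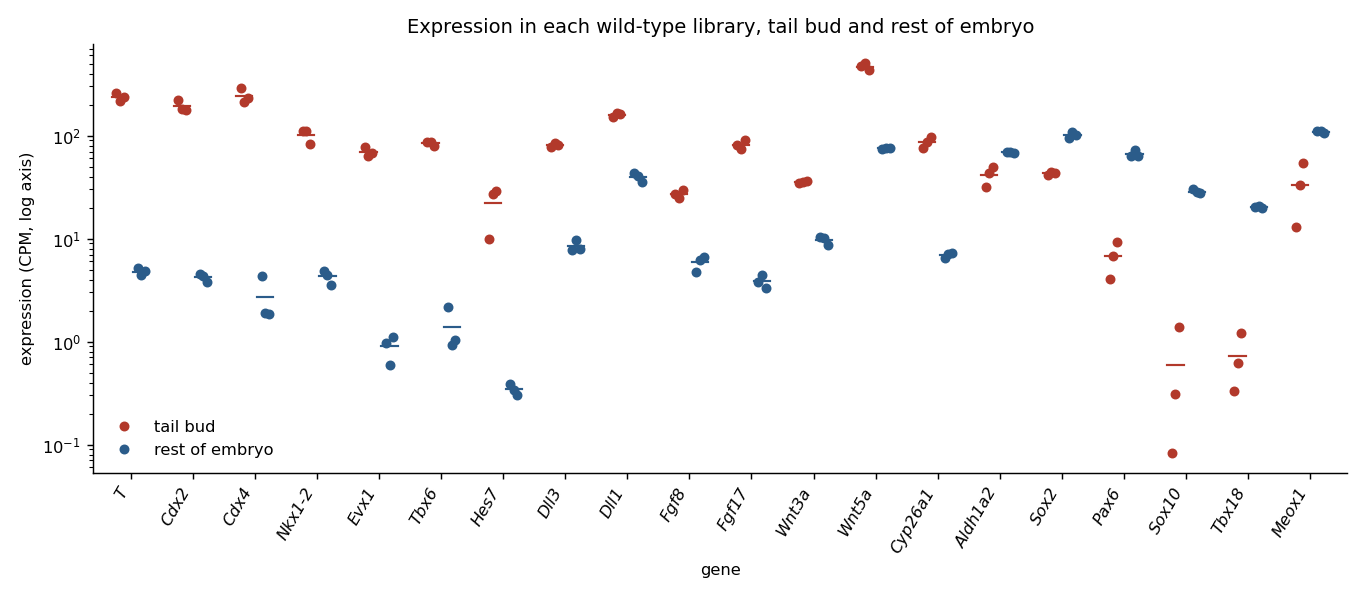
Expression of 20 genes in each of the 3 tail bud (red, left) and 3 rest-of-embryo (blue, right) wild-type libraries, in CPM on a log axis, with short bars at the means. T, Cdx2, Cdx4, Tbx6 and Hes7 lie far higher in tail bud, Sox10 and Tbx18 far lower, and the tail bud libraries spread for Hes7 (9.86 to 29.0 CPM) and Meox1 (12.8 to 53.6 CPM).

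Of the 20 genes listed for axial progenitors, 19 were tested, 14 rose and 3 fell (against 13.2% and 16.7% of all genes tested), with a median log2 fold change of 1.86, against 0.01 over all genes. Pou5f1, the pluripotency factor Oct4, was under the filter at 0.990, 0.428 and 0.504 CPM in tail bud and 0.0978, 0.0425 and 0.214 CPM in the rest. The homeobox gene Evx1, expressed in the streak and tail bud, had 77.2, 63.0 and 67.3 CPM in tail bud, against 0.978, 0.595 and 1.11 CPM (6.27 ± 0.23, adjusted p = 2.63e-09). Its relative Evx2, which lies beside the posterior end of the Hoxd cluster, had 572 counts in tail bud and 2 in the rest, a ratio of 293 (exact 95% interval 80.7 to 2423). Both were high in every tail bud library and near 0 elsewhere. The zinc-finger factors Sall4 and Sall1, which act in progenitor maintenance and in limb and kidney growth, rose less steeply from a higher base. Sall4 had 475, 502 and 402 CPM in tail bud, against 136, 136 and 135 CPM (1.76 ± 0.09, adjusted p = 1.16e-08), and Sall1 had a log2 fold change of 1.86 ± 0.09, adjusted p = 9.59e-09. Greb1, an oestrogen-responsive gene also active in embryonic mesoderm, had 1059, 969 and 710.1 CPM, against 156, 169.6 and 167 CPM (2.48 ± 0.12, adjusted p = 2.04e-08).

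Of the 3 members that fell, Nr6a1 encodes germ cell nuclear factor, a nuclear receptor that acts during trunk elongation, and had 95.7, 83.8 and 70.7 CPM in tail bud, against 258, 229.8 and 223 CPM (-1.50 ± 0.10, adjusted p = 1.63e-07). Fst, the secreted activin antagonist follistatin, had 7.96, 7.52 and 10.3 CPM, against 40.4, 36.8 and 36.4 CPM (-2.16 ± 0.14, adjusted p = 1.03e-07). The tail bud libraries lay below every library of the rest for both. Zic2, a zinc-finger factor of early neural tissue, did not pass the test (-0.11 ± 0.12, adjusted p = 0.537).

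Presomitic and segmentation genes split. Of 22 listed, 20 were tested, 12 rose and 5 fell (3 without rest-of-embryo library 2), with a median of 0.73. The Notch ligand genes Dll3 and Dll1 rose. Dll3 averaged 81.2 ± 3.75 CPM in tail bud and 8.40 ± 1.08 CPM in the rest (SD, n = 3 each), a log2 fold change of 3.27 ± 0.11, adjusted p = 6.59e-10. Dll1 averaged 159 ± 7.80 CPM in tail bud and 39.6 ± 3.79 CPM in the rest (SD, n = 3 each), a log2 fold change of 2.00 ± 0.10, adjusted p = 1.6e-08. Cited1, a transcriptional coactivator seen at the front of the presomitic mesoderm, had 67.7, 55.5 and 74.3 CPM in tail bud, against 12.0, 9.31 and 8.90 CPM (2.71 ± 0.13, adjusted p = 1.16e-08). Wild-type heart averaged 101 CPM of Cited1. Among Notch targets, Hes1 rose (0.68 ± 0.07, adjusted p = 5.68e-06), while Hes5, a Notch target of neural progenitors, fell to 1.24, 1.67 and 2.27 CPM in tail bud, against 14.5, 15.8 and 13.6 CPM (-3.12 ± 0.21, adjusted p = 1.45e-07). Heyl, a Notch target of formed somites, fell as well (-2.22 ± 0.24, adjusted p = 1.42e-05).

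Pcdh8, Ripply1 and Mesp2 have roles at the segment boundary, where presomitic mesoderm turns into somite. Pcdh8 (paraxial protocadherin) had 9.08, 10.1 and 13.9 CPM in tail bud, against 21.2, 30.2 and 30.0 CPM (-1.32 ± 0.20, adjusted p = 0.000258). Ripply1, a repressor that ends Tbx6 activity at the boundary, had 0.536, 0.467 and 0.630 CPM, against 1.08, 1.36 and 1.11 CPM (-1.14 ± 0.29, adjusted p = 0.00983), and lost its call without rest-of-embryo library 2 (adjusted p = 0.0572, and 0.00956 to 0.0572 over all alternatives). Both fell in wild type, yet Pcdh8 passed the test in 0 and Ripply1 in 1 of the 7 mutant genotypes, with log2 fold changes of -0.68 to 0.35 and -1.39 to 0.06; no test compared genotypes. Mesp2, the factor that sets the next boundary, had 0.371, 2.69 and 5.99 CPM in tail bud and 1.27, 0.468 and 0.214 CPM in the rest (2.17 ± 0.87, adjusted p = 0.0935). Its tail bud libraries overlapped those of the rest, with library 1 the lowest of the tail buds. Without tail bud library 1 its log2 fold change was 2.74 (adjusted p = 0.00254, and 0.00254 to 0.345 over all alternatives).

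Tail bud library 1 differed from libraries 2 and 3 in genes of the segmentation clock, which are known to oscillate in groups, Notch-linked genes such as Lfng, Hes7 and Nrarp in one phase and the WNT feedback genes Axin2 and Dkk1 in another. Lfng, a glycosyltransferase that modifies Notch, had 12.4, 42.2 and 37.1 CPM in tail bud and 33.8, 36.4 and 34.9 CPM in the rest, and did not pass the test (-0.20 ± 0.38, adjusted p = 0.733). Nrarp, a Notch target that feeds back on the pathway, had 86.5, 147 and 167 CPM in tail bud, against 31.5, 38.6 and 39.6 CPM (1.86 ± 0.21, adjusted p = 9.42e-05). Library 1 was thus the lowest tail bud for Lfng, Hes7 and Nrarp. Axin2, a scaffold that limits WNT signalling, had 201, 111 and 110.2 CPM in tail bud and 91.9, 95.3 and 98.2 CPM in the rest (0.57 ± 0.23, adjusted p = 0.104), and library 1 was the highest. Dkk1, a secreted WNT inhibitor, had 58.3, 18.6 and 44.7 CPM in tail bud, against 4.84, 5.78 and 6.68 CPM (2.80 ± 0.40, adjusted p = 0.00092). Without tail bud library 1 the log2 fold change of Lfng was 0.19, the other sign.

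The 21 mutant tail bud libraries were then looked at for the same opposition, which had been noticed in wild type, with each library's log2 CPM given as its deviation from the mean of its genotype. In each of the 7 genotypes exactly 1 of the 3 libraries lay above its genotype mean for Lfng (0.47 to 0.93) and the other libraries below it (-0.67 to -0.08). All 7 of the Lfng-high libraries were below their mean for Axin2 (-0.42 to -0.16) and above it for Hes7 (0.37 to 1.11). Of the 14 Lfng-low libraries, 13 were above their mean for Axin2 and 1 was above its mean for Hes7. The library highest in Lfng was the lowest in Axin2 in 7 of 7 genotypes, the lowest in Dkk1 in 6, and the highest in Nrarp in 7. Mesp2 followed less closely, highest in the same library in 5 of 7. The deviations of the 3 libraries of a genotype sum to 0, so they are not independent, and since the libraries fall into separate groups no correlation is given. Lfng ranged from 13.4 to 55.7 CPM and Axin2 from 109.5 to 199.9 CPM over the 21 libraries.

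**Figure D2:**
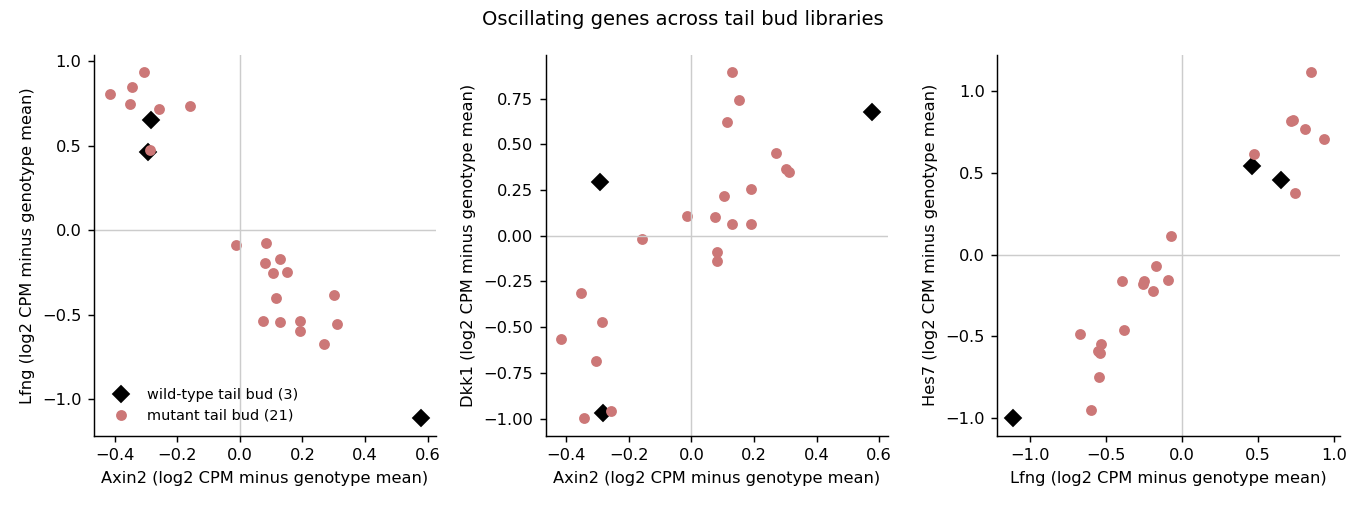
Deviation of each tail bud library from its genotype mean (log2 CPM) for Axin2 and Lfng, Axin2 and Dkk1, and Lfng and Hes7, in 21 mutant libraries (circles) and 3 wild-type libraries (diamonds). Libraries high in Lfng are low in Axin2 and high in Hes7, and wild-type library 1 lies at the Axin2-high, Lfng-low end (0.58 and -1.11).

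Of 24 WNT pathway genes, all tested, 15 rose and 4 fell, with a median of 0.91. Among the ligands, Wnt3a, which sustains axial progenitors, had 34.3, 35.5 and 36.0 CPM in tail bud, against 10.3, 10.0 and 8.56 CPM (1.87 ± 0.10, adjusted p = 1.91e-08). Wnt5a, a ligand of the noncanonical branch that guides axis extension, had 471, 501 and 432 CPM, against 74.4, 76.5 and 76.4 CPM (2.63 ± 0.07, adjusted p = 2.3e-10). The tail buds were uniformly high for both, and Wnt5a had a fold change of 6.18. Rspo3, an R-spondin that potentiates WNT receptors, rose most of the list (3.13 ± 0.11, adjusted p = 1.17e-09). The nuclear effector Lef1 had 304, 308 and 263 CPM, against 82.4, 88.8 and 83.8 CPM (1.78 ± 0.07, adjusted p = 1.49e-09). Ctnnb1, which encodes beta-catenin, did not pass the test, with 1434, 1425 and 1422 CPM in tail bud and 1438, 1458 and 1480.2 CPM in the rest (-0.03 ± 0.05, adjusted p = 0.698). The members that fell were the secreted inhibitors Sfrp1 (-2.02 ± 0.06, adjusted p = 3.46e-10) and Sfrp2 (-0.74 ± 0.09, adjusted p = 5.57e-05), the R-spondin receptor Lgr5 (3.09, 3.04 and 2.02 CPM in tail bud, against 6.65, 7.53 and 7.75 CPM; adjusted p = 6.53e-05) and the repressor Tcf7l1 (-0.35 ± 0.09, adjusted p = 0.0129). The call of Tcf7l1 was lost without rest-of-embryo library 2 (adjusted p = 0.0533, and 0.000155 to 0.0533 over all alternatives). Inhibitors of the pathway lay on both sides. The secreted inhibitor Dkk1, given above, is in this list and rose at least 2-fold, as did other inhibitors among its members.

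The FGF list moved mostly upward: of 22 genes, all of them tested, 15 rose and 4 fell, with a median of 0.91. Fgf8, the ligand that keeps the posterior presomitic mesoderm immature, had 27.0, 24.6 and 29.9 CPM in tail bud, against 4.69, 6.25 and 6.68 CPM (2.20 ± 0.15, adjusted p = 1.7e-07). Its close relative Fgf17 was more sharply divided, with 81.4, 73.2 and 90.2 CPM, against 3.81, 4.47 and 3.30 CPM (4.40 ± 0.17, adjusted p = 3.49e-09). The tail buds were far above the rest in every library for both ligands. The ETS factor Etv4, a target of the pathway, had 90.0, 79.8 and 86.9 CPM, against 16.3, 14.9 and 16.3 CPM (2.43 ± 0.10, adjusted p = 2.81e-09), the related Etv5 had a log2 fold change of 1.52 ± 0.08, adjusted p = 3.23e-08, and the phosphatase Dusp4 one of 1.90 ± 0.09, adjusted p = 9.19e-09. Among receptors, Fgfr1, the receptor of the presomitic mesoderm, did not pass the test (0.18 ± 0.07, adjusted p = 0.0816), and passed it without tail bud library 3 (adjusted p = 0.0357, and 0.00497 to 0.255 over all alternatives). Fgfr3 fell to 9.49, 14.0 and 11.0 CPM in tail bud, against 60.4, 66.0 and 63.0 CPM (-2.45 ± 0.14, adjusted p = 4.19e-08), and Fgfr2 fell by 0.86 on the log2 scale (adjusted p = 5.28e-06). Fgf15, a ligand of the brain and pharynx, fell as well (-1.51 ± 0.15, adjusted p = 5.69e-06), as did the FGF-binding protein Fgfbp3 (-2.03 ± 0.17, adjusted p = 1.33e-06).

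Retinoic acid genes went the other way in number: of 16 tested, 2 rose and 12 fell, with a median of -0.80. Of the members that rose, Cyp26a1, the enzyme that clears retinoic acid from the tail bud, had 76.1, 86.0 and 96.6 CPM in tail bud, against 6.45, 7.06 and 7.19 CPM (3.64 ± 0.14, adjusted p = 2.71e-09). Its relative Cyp26b1, which acts in limb and hindbrain, fell to 2.60, 3.47 and 4.85 CPM in tail bud, against 50.4, 59.5 and 43.1 CPM (-3.85 ± 0.18, adjusted p = 1.25e-08). Cyp26c1, of the anterior head, fell to 4.08, 4.25 and 4.48 CPM, against 27.1, 21.0 and 21.1 CPM (-2.44 ± 0.13, adjusted p = 1.91e-08). The family was divided without overlap, Cyp26a1 above the rest and the others below it. Among the receptors, Rarg rose (1.92 ± 0.08, adjusted p = 2.54e-09) and Rarb, a direct retinoic acid target, fell (-1.47 ± 0.12, adjusted p = 9.31e-07). Aldh1a2, the main retinoic acid synthase of the somites, had 31.6, 43.6 and 49.8 CPM in tail bud, against 69.7, 69.4 and 67.7 CPM (-0.73 ± 0.14, adjusted p = 0.00141). In the mutants its log2 fold change ran from -0.97 to 0.30, and it passed the test as lower in 2 of 7 genotypes. The synthase Aldh1a3, of the eye and nasal region, fell (-2.53 ± 0.19, adjusted p = 7.16e-07).

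Hox genes rose as a family. Of 39 listed, 38 were in the table and 36 were tested, 35 rose, 0 fell, and the median log2 fold change was 2.66. The exception was Hoxa2, a gene of the hindbrain and second arch, with 19.3, 17.4 and 18.0 CPM in tail bud and 14.8, 16.7 and 15.5 CPM in the rest (0.22 ± 0.10, adjusted p = 0.143). The size rose with position in the cluster over blocks of paralogue groups, though not group by group. Group 13 had a median of 5.27, below group 11 at 9.58, and group 1 one of 1.94, above group 2 at 0.39. The 14 genes of paralogue groups 1 to 5 had a median of 1.34 (0.22 to 3.26), the 12 of groups 6 to 9 one of 2.92 (0.76 to 3.95) and the 10 of groups 10 to 13 one of 6.68 (4.70 to 9.78). Spearman's rho between paralogue number and log2 fold change was 0.787 over the 36 genes, which share their libraries and their clusters and are not independent. The ranges of groups 6 to 9 and 10 to 13 did not overlap. The fitted values of Hoxc11, Hoxd12 and Hoxc13, which had 3 counts or fewer in the rest, depend on the prior count of the fit, and their counts are given next.

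The most posterior genes were close to absent outside the tail bud. Hoxd11, which patterns sacral vertebrae and limbs, had 67.1, 89.4 and 95.4 CPM in tail bud, against 0.0489, 0.128 and 0.0856 CPM (9.78 ± 0.40, adjusted p = 2.55e-08). Hoxd13, of the tail tip and distal limb, had 47.4, 57.8 and 68.1 CPM, against 0.342, 0.170 and 0.257 CPM (7.80 ± 0.30, adjusted p = 3.33e-09). Tail bud library 1 was the lowest tail bud for both, still far above the rest. Hoxc11 had 1766 counts in tail bud and 2 in the rest, a ratio of 904 (exact 95% interval 250 to 7470), and Hoxd12 had 340 counts in tail bud and 1 in the rest, a ratio of 348 (62.0 to 13787). Hoxc13 had 87 counts in tail bud and 3 in the rest, a ratio of 29.7 (9.83 to 147). Under the filter, Hoxc12 had 35 counts in tail bud and 0 in the rest, at least 11.9-fold higher with 3 counts taken as the floor over the group, and Hoxb13 had 5 counts in tail bud and 0 in the rest.

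Anterior and middle genes showed finer grades. Hoxb9 had 153, 129 and 138 CPM in tail bud, against 83.9, 84.1 and 80.2 CPM (0.76 ± 0.14, adjusted p = 0.00138), the smallest change of groups 6 to 9, while Hoxa9 of the same paralogue group had 217, 223 and 186 CPM, against 13.0, 12.7 and 15.0 CPM (3.95 ± 0.18, adjusted p = 5.84e-08). Of the Hoxb cluster, Hoxb8 also changed little (0.88 ± 0.10, adjusted p = 2.95e-05). Hoxd1 was the steepest of groups 1 to 5 (3.26 ± 0.17, adjusted p = 1.91e-08), ahead of Hoxc5 (2.18 ± 0.13, adjusted p = 7.64e-08) and Hoxb1, the earliest Hoxb gene in the streak (1.94 ± 0.12, adjusted p = 7.44e-08). Hoxb5os, a noncoding RNA antisense within the Hoxb cluster, had a log2 fold change of 2.89 ± 0.19, adjusted p = 3.57e-07. Whether counting used strand is not given, so reads of overlapping Hox transcripts cannot be told apart. Hoxd4 was not analysed here.

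**Figure D3:**
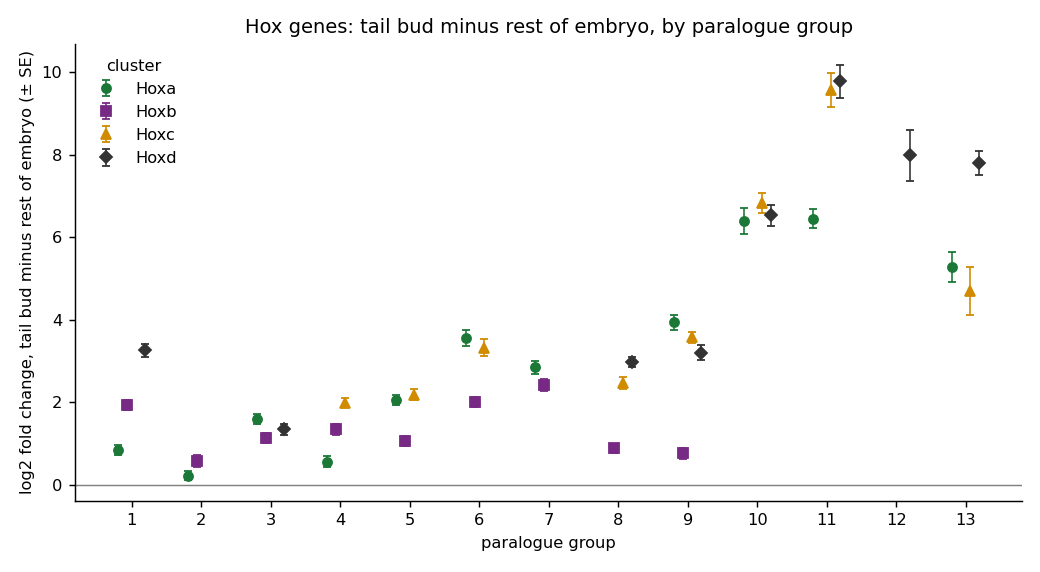
Log2 fold change, tail bud minus rest of embryo, of 36 Hox genes by paralogue group, with standard errors and one symbol per cluster. Groups 10 to 13 all lie at 4.70 or above, groups 6 to 9 between 0.76 and 3.95 and groups 1 to 5 between 0.22 and 3.26.

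BMP, activin and GDF11 genes showed no common direction: of 25 listed, 23 were tested, 10 rose and 9 fell, with a median of -0.06. Gdf11, the TGF-beta family ligand that times the switch from trunk to tail, had 142, 122 and 128 CPM in tail bud, against 44.3, 47.1 and 49.9 CPM (1.47 ± 0.08, adjusted p = 1.94e-08). Bmp4, a ligand of the ventral and posterior mesoderm, had 76.2, 65.3 and 55.2 CPM, against 21.6, 22.3 and 22.9 CPM (1.56 ± 0.12, adjusted p = 7.26e-07). Both ligands were higher in every tail bud. The receptor Bmpr1b (-1.46 ± 0.14, adjusted p = 5.29e-06) and the ligand Bmp5 (-1.12 ± 0.09, adjusted p = 1.29e-06) fell.

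Limb genes formed no list of their own, and those given here come from other lists or were picked singly. Pitx1, a homeobox factor that sets hindlimb identity and was listed here with the pharyngeal arches, had 107, 113 and 99.5 CPM in tail bud, against 15.0, 14.2 and 15.5 CPM (2.84 ± 0.11, adjusted p = 2.7e-09). Tbx4, the T-box factor of hindlimb and allantois, was singled out after its values were seen and had 72.3, 76.8 and 71.7 CPM, against 4.84, 0.340 and 3.72 CPM (4.66 ± 0.52, adjusted p = 0.000397). Tbx5, its counterpart in the forelimb and heart, fell to 0.578, 0.935 and 1.51 CPM in tail bud, against 12.8, 14.7 and 14.6 CPM (-3.88 ± 0.18, adjusted p = 7.19e-09). The 3 genes were separated without overlap, and the extent of the dissection is not stated in the labels. Isl1, a homeobox gene of motor neurons and of hindlimb mesenchyme, was the single member of the neural list to rise (1.90 ± 0.08, adjusted p = 2.63e-09). Hand2, of limb and arches, rose as well (1.38 ± 0.09, adjusted p = 1.49e-07).

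Noto, a homeobox gene of the node and posterior notochord, had 9.82, 9.00 and 9.64 CPM in tail bud, against 0.440, 0.340 and 0.214 CPM in the rest (4.83 ± 0.24, adjusted p = 1.6e-08). The notochord and floor plate list as a whole did not share its direction: of 13 tested, 2 rose and 6 fell, with a median of -0.18, and 1 rose without tail bud library 1 or any single rest-of-embryo library, and 3 fell without rest-of-embryo library 3. The floor plate guidance cue Ntn1 fell (-1.43 ± 0.07, adjusted p = 1.69e-08). Gut endoderm genes were mixed, 6 higher and 3 lower of 14 tested (3 higher without rest-of-embryo library 2).

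Genes of the brain were strongly depleted. Of 26 brain region genes 25 were tested, 0 rose and 24 fell, with a median log2 fold change of -4.26. The exception Emx2, also a gene of the urogenital ridge, had 8.99, 8.76 and 9.14 CPM in tail bud and 9.34, 9.91 and 11.0 CPM in the rest (-0.17 ± 0.13, adjusted p = 0.353). Otx2, of forebrain and midbrain, had 0.124, 0.467 and 1.26 CPM in tail bud, against 42.2, 46.3 and 48.3 CPM (-6.39 ± 0.31, adjusted p = 2.85e-08). Tail bud library 3 was the highest tail bud for Otx2 and still far below the rest. En2, of the midbrain-hindbrain boundary, fell to 1.24, 1.17 and 1.07 CPM, against 15.3, 20.2 and 17.5 CPM (-3.91 ± 0.19, adjusted p = 1.19e-08), and the hindbrain roof and midbrain gene Lmx1b fell (-2.97 ± 0.13, adjusted p = 5.54e-09). Nkx2-1, of the hypothalamus and thyroid, had 1 count in tail bud and 281 in the rest, a ratio of rest over tail bud of 274.5 (exact 95% interval 48.9 to 10881).

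Neural genes beyond the brain regions also fell. Of 26 listed, 25 were tested, 1 rose and 23 fell, with a median of -2.61. The pan-neural factor Sox2, which neuromesodermal progenitors also express, fell to 41.3, 44.2 and 43.2 CPM in tail bud, against 94.8, 109 and 101 CPM (-1.24 ± 0.13, adjusted p = 1e-05). Olig2, of motor neuron progenitors, fell to 0.124, 0.273 and 0.504 CPM, against 9.73, 15.6 and 9.84 CPM (-5.38 ± 0.33, adjusted p = 6.91e-08). Every tail bud library was far below the rest for Olig2. The neuronal RNA-binding proteins Elavl3 (-3.64 ± 0.19, adjusted p = 2.04e-08) and Elavl4 (-2.17 ± 0.15, adjusted p = 2.04e-07) fell. Sox3, a relative of Sox2, did not pass the test (-0.36 ± 0.14, adjusted p = 0.0707), and passed it with a replicate block (adjusted p = 0.0396, and 0.0299 to 0.267 over all alternatives).

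Neural crest genes fell in the same manner, 12 lower and 1 higher of 14 tested, with a median of -1.94. Sox10, which marks migrating crest, had 0.0825, 0.312 and 1.39 CPM in tail bud, against 30.1, 28.2 and 27.4 CPM (-5.83 ± 0.40, adjusted p = 9.77e-07). Sox9, of crest and cartilage (-2.51 ± 0.10, adjusted p = 2.63e-09), and the AP-2 factor Tfap2b (-3.37 ± 0.15, adjusted p = 4.73e-09) fell too. The member that rose was Ret, a receptor tyrosine kinase of enteric crest and of the nephric duct, with 46.1, 50.5 and 46.3 CPM in tail bud, against 23.4, 21.0 and 17.3 CPM (1.21 ± 0.22, adjusted p = 0.00187). In the list of kidney and intermediate mesoderm, 3 of 10 rose and 5 fell, among them Gata3, of the nephric duct, higher (1.15 ± 0.14, adjusted p = 3.79e-05), and the transcriptional coactivator Eya4 lower (-1.13 ± 0.16, adjusted p = 0.000177).

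Genes of formed somites and their derivatives fell or did not pass: of 18 listed, 16 were tested, 1 rose and 10 fell, with a median of -1.49. Pax1, of the sclerotome, had 0.0413, 0.273 and 0.504 CPM in tail bud, against 18.9, 23.6 and 18.5 CPM (-6.34 ± 0.32, adjusted p = 1.52e-08). Tbx18, of the anterior part of the segment, had 0.330, 0.623 and 1.20 CPM, against 20.3, 20.7 and 19.7 CPM (-4.92 ± 0.23, adjusted p = 8.69e-09). Myog, a myogenic factor, had 1 count in tail bud and 178 in the rest, a ratio of rest over tail bud of 174 (exact 95% interval 30.8 to 6906). Meox1, a homeobox gene of newly formed somites, had 12.8, 33.0 and 53.6 CPM in tail bud, against 110.2, 111 and 107 CPM (-1.74 ± 0.43, adjusted p = 0.0221). Library 1, low in Lfng and Hes7, was also the lowest tail bud for Meox1. The call of Meox1 was lost without tail bud library 2 (adjusted p = 0.0745, and 6.61e-05 to 0.0745 over all alternatives) and also without rest-of-embryo library 1 or 2. Foxc2, of somitic mesoderm, did not pass the test (-0.48 ± 0.19, adjusted p = 0.0795), and passed it with a replicate block (adjusted p = 0.0268, and 0.0268 to 0.194 over all alternatives). Des, which encodes desmin, was the one member to rise (0.98 ± 0.08, adjusted p = 8.68e-07).

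Pharyngeal arch and face genes were mostly lower, 13 of 20 tested, with 3 higher and a median of -0.84. Tbx1, of the arch endoderm and mesoderm, fell to 1.61, 2.45 and 2.77 CPM in tail bud, against 14.9, 11.9 and 13.5 CPM (-2.58 ± 0.18, adjusted p = 2.25e-07), and Dlx1, of the arch mesenchyme, fell as well (-2.91 ± 0.24, adjusted p = 9.41e-07). Heart muscle markers fell in 15 of 17 tested and rose in 1 (0 without tail bud library 2 or 3 or rest-of-embryo library 2 or 3), with a median of -3.74. They summed to 30.9, 37.7 and 52.3 CPM in tail bud and to 357, 455 and 368 CPM in the rest, against 53507 to 60418 CPM in heart, and Myh6 had 0.495, 1.13 and 5.11 CPM in tail bud, against 58.3, 92.8 and 69.2 CPM in the rest (-5.21 ± 0.64, adjusted p = 0.000954). The part of carried-over heart RNA in the muscle genes of either tissue was not tested. Of visceral endoderm markers 9 of 11 tested fell and 0 rose, with a median of -4.62. Afp, the yolk sac and liver protein alpha-fetoprotein, averaged 1.30 ± 0.401 CPM in tail bud and 64.5 ± 51.8 CPM in the rest (SD, n = 3 each; -5.67 ± 0.78, adjusted p = 0.00163), and the count that fell was 5 without tail bud library 1 or without library 2.

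**Figure D4:**
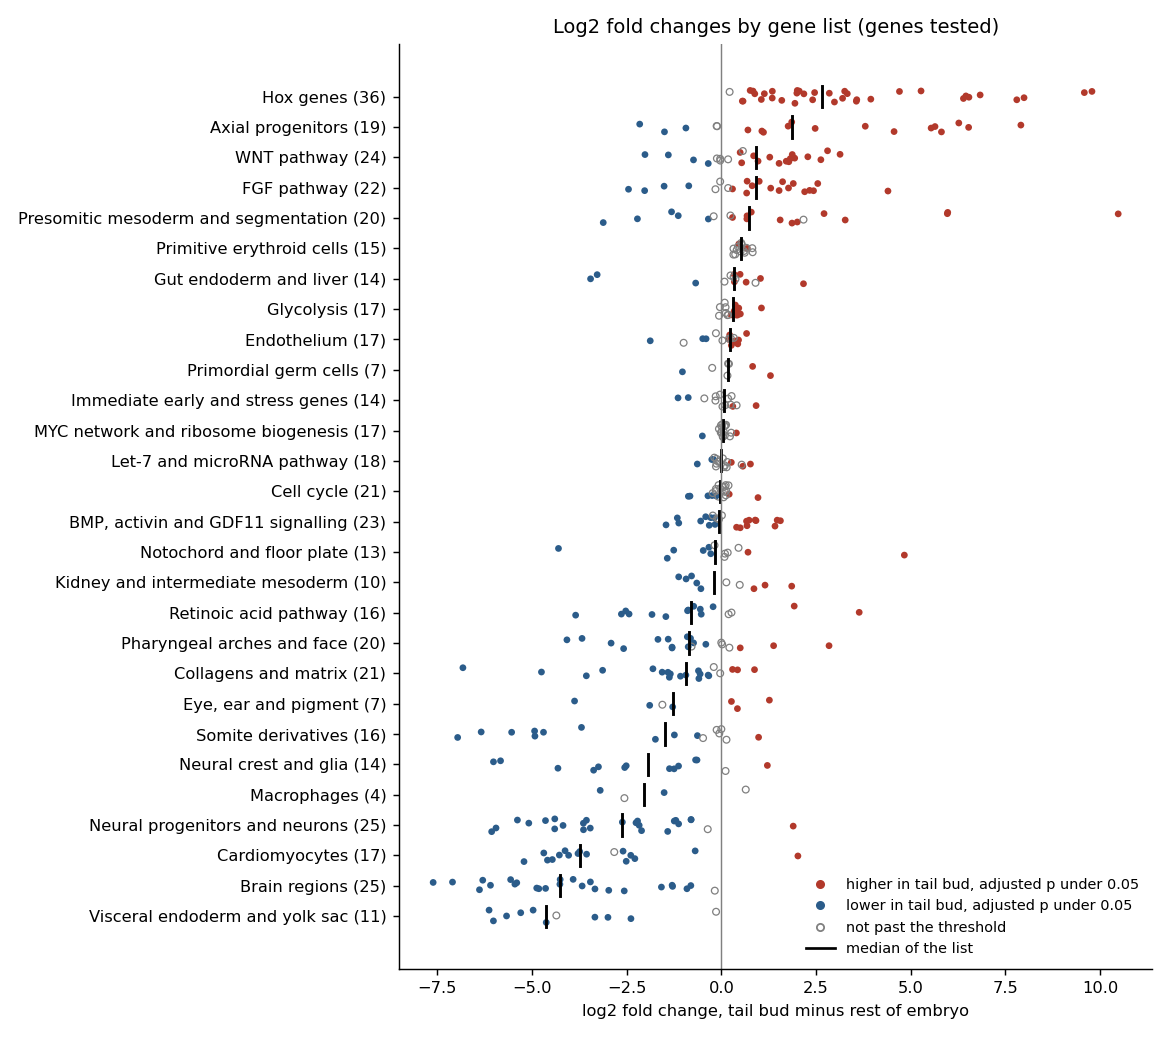
Log2 fold changes, tail bud minus rest of embryo, of the tested members of 28 gene lists, with list medians as bars. Hox genes (median 2.66) and axial progenitors (1.86) lie to the right, brain regions (-4.26) and visceral endoderm (-4.62) to the left, and the MYC network (0.04) lies near 0.

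Ranked by size among well-expressed genes (mean log2 CPM of at least 5 over both tissues), the 12 steepest increases were T, Hoxa9, Hoxc6, Ifitm1, Hoxb5os, Pitx1, Dgkk, Wnt5a, Greb1, Hoxc8, Etv4 and Kif26b. Taken over both tissues, the cut removes genes that are abundant in tail bud and nearly absent from the rest. Cdx2 and Cdx4, given above, were steeper than Hoxa9 and fell under it. Ifitm1, an interferon-inducible membrane protein also expressed in the primitive streak, had 95.0, 85.5 and 117 CPM in tail bud, against 11.9, 9.53 and 10.3 CPM (3.23 ± 0.21, adjusted p = 9.5e-07). Dgkk, a diacylglycerol kinase, had 103, 85.3 and 77.6 CPM, against 12.8, 13.0 and 12.9 CPM (2.78 ± 0.10, adjusted p = 9.08e-10). Kif26b, a kinesin that acts downstream of Wnt5a, had 148, 149 and 122 CPM, against 27.0, 28.7 and 27.6 CPM (2.33 ± 0.08, adjusted p = 6.59e-10). Each was high in every tail bud library. In wild-type heart, which is not part of the rest, Dgkk averaged 102 CPM and Kif26b 203 CPM, against 1.42 CPM for Ifitm1. The 12 steepest decreases were Pkdcc, Postn, Epha7, Col3a1, an unnamed gene (ENSMUSG00000086878), Flrt2, Aff3, Srgap3, Actc1, Skida1, Ildr2 and Ptn. Pkdcc, a secreted kinase of skeletal and limb mesenchyme, had 8.17, 10.4 and 11.5 CPM in tail bud, against 153, 143 and 146 CPM (-3.89 ± 0.10, adjusted p = 1.87e-10). Epha7, an ephrin receptor, fell (-3.17 ± 0.10, adjusted p = 4.98e-10), as did Ptn, the growth factor pleiotrophin (-2.05 ± 0.09, adjusted p = 5.15e-09). The matrix genes Postn, periostin, and Col3a1, a fibrillar collagen, fell (-3.56 ± 0.40, adjusted p = 0.000378, and -3.14 ± 0.19, adjusted p = 8.23e-07).

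The same contrast within each mutant genotype used 3 tail bud and 3 rest-of-embryo libraries (2 for Delta_17_18_92), none of them shared with the wild-type comparison, in a fit of all 71 libraries that tested 18875 genes. Of the 5051 genes called in wild type, 77.4% (Delta_17_18_92) to 84.9% (Delta_92) were called in the same direction, and 0 to 2 in the opposite one. Background shares of all genes tested were 13.3% to 15.9% higher and 16.4% to 18.3% lower across the 7 genotypes. Of the 1932 genes at least 2-fold apart in wild type, 88.6% to 92.4% were called the same way. In all 7 genotypes 3214 of the 5051 were called the same way, and 1561 of the 1932, while 217 and 38 were called so in 0 genotypes. The calls shared with wild type made up 65.6% to 70.4% of each genotype's own calls. Here the 5051 wild-type calls came from the fit of wild-type libraries alone, which tested 16922 genes. In the fit of all 71 libraries, wild type had 3376 genes called higher and 3601 lower. The shares therefore compare unlike fits and do not measure how many mutant calls are absent from wild type.

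By gene, the values of posterior genes lay close together. T ran from 5.58 to 5.99 across the mutants, against 5.64 in wild type, Tbx6 from 5.94 to 6.40, against 5.97, and Wnt3a from 1.57 to 1.82, against 1.87. Cyp26a1 ran from 3.67 to 4.08, against 3.64, and Hoxa9 from 3.74 to 4.25, against 3.95. All were called higher in 7 of 7. All 24 of the steepest well-expressed genes above were called in the wild-type direction in 7 of 7 genotypes. Among genes nearly absent from one tissue, Hoxd11 ran from 8.40 to 10.55, against 9.78, and Sox10 from -7.42 to -5.12, against -5.83. Whether any contrast differs between genotypes was not tested.

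**Figure D5:**
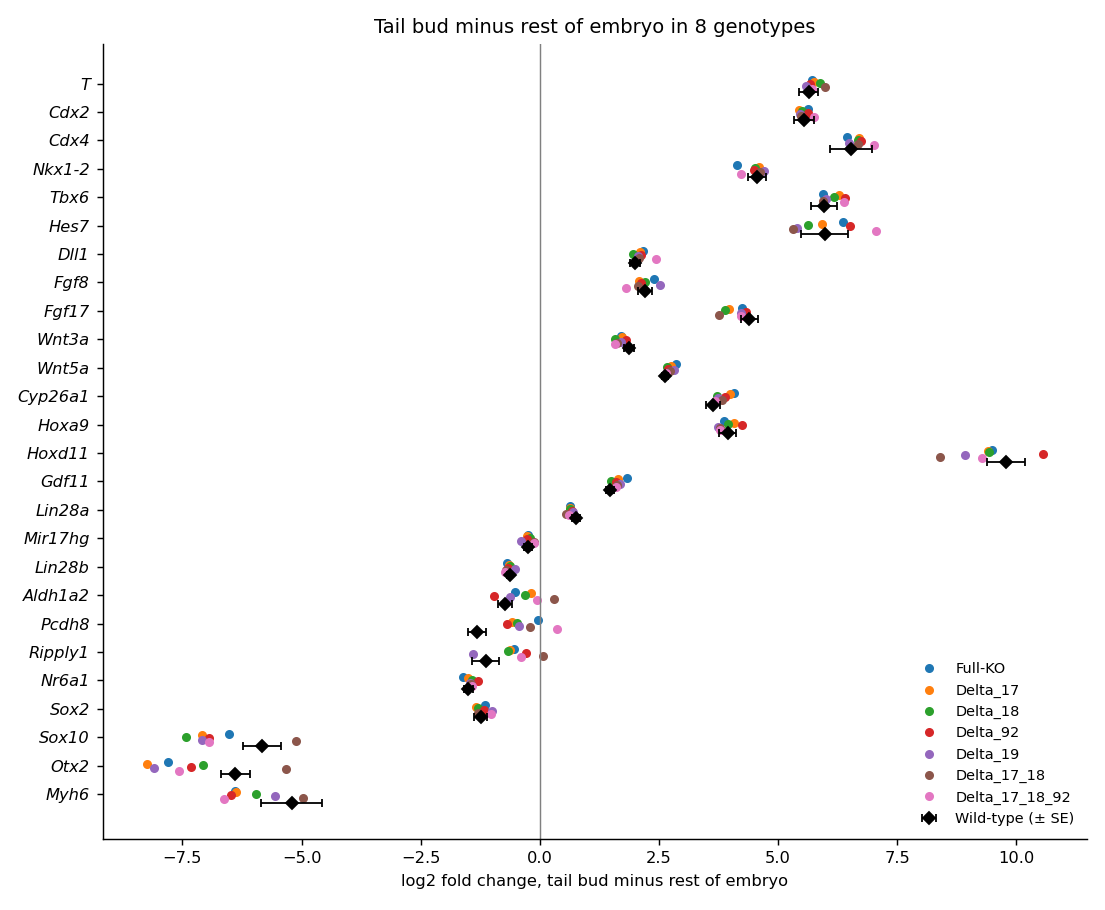
Log2 fold change, tail bud minus rest of embryo, of 26 genes in 7 mutant genotypes (circles) and wild type (diamonds with standard errors). The genotypes lie together for T, Cdx2 and Tbx6, and Pcdh8 (-0.68 to 0.35 in the mutants and -1.32 in wild type) and Ripply1 (-1.39 to 0.06 and -1.14) lie nearer 0 in most mutants.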

How the data were processed

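RNA from microdissected tissue was sequenced as TruSeq libraries of 50-base single reads, per the labels' protocols. The deposited table holds raw counts of reads per gene for all libraries. The submitters' processing notes name featureCounts, Subread 1.4.2, STAR 2.3.0 and SAMtools 0.1.14, and the builds mm9 and NCBIM37. The annotation release, strand setting and treatment of multiply mapped reads are not given in the sources used here, so overlapping, antisense and near-identical genes are uncertain. Symbols came from GENCODE by gene ID, matching 32897 of 37620 IDs, and promoters from RefSeq on GRCm38.p6.

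From the deposited counts, edgeR 4.0.16 (R 4.3.3) fitted the 9 wild-type libraries with TMM scaling, filterByExpr and the robust quasi-likelihood test. The 3 heart libraries entered the low-count filter, the scaling and the estimate of spread, but not the contrast. With only the 6 libraries, 16426 genes passed the filter, in place of 16922, so the background shares depend in part on heart. The contrast was tail bud minus rest, two-sided, with Benjamini-Hochberg adjustment over 16922 genes and a threshold of 0.05, and every adjusted p printed is from this test unless another setting is named. An error after ± beside a log2 fold change is its standard error. The biological coefficient of variation was 9.44%. The series text calls replicates biological, without saying whether a library is 1 embryo, so p-values measure the spread between these samples. Deviations from the group means correlated by 0.363, 0.695 and 0.240 for tail bud and rest libraries of the same number (10251 genes). Libraries of different numbers gave -0.539 to 0.191, and the deviations within a group are not independent. In 23 of 23 same-numbered tail bud and rest pairs of the series, the same gene of Xist and Ddx3y was the higher. Wild-type pair 3 differed in the level of Xist, 49.5 CPM in tail bud and 4.71 CPM in the rest. The block on replicate number was therefore fitted as an alternative. Others were DESeq2 1.42.0 and its size factors, no or a stricter low-count filter (mean log2 CPM 3 or more), only the 6 libraries, all 71 libraries, and each library left out. On simulated data for the wild-type contrast (16534 genes tested), 50 of 67 genes changed by 0.5 on the log2 scale were recovered, 64 of 67 changed by 1 and 66 of 66 changed by 2. Of the calls, 10 (5.26%) were false. The simulated data held few changed genes and no library set apart as tail bud library 3 was, so these rates need not hold for the real libraries. Intervals on counts are exact and cover counting error only.

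Genes are named if among the 12 steepest per direction (called, without overlap, mean log2 CPM 5 or more); among the 4 smallest p per direction, or the 2 best expressed uncalled members, of a list; a Hox gene; or one of 26 genes fixed by name. Members and lists were chosen with earlier results of these data known. Axin2, Dkk1, Evx2, Hes1, Meox1, Nkx2-1, Nrarp and Tbx4 fall outside this rule, and were named after their values were seen. A few listed genes are not reported here by name.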

Additional observations from a re-analysis of the deposited data

How the results depend on the processing

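Of 13 other settings, those that left out 1 library called from 3844 to 5866 genes (lowest without rest-of-embryo library 2, highest without tail bud library 3). The count was 4362 with only the 6 libraries, 6977 with all 71, and 2879, with 485 at least 2-fold apart, under the stricter low-count filter, which tested 10247 genes. In place of 1932, from 1818 to 2012 genes were at least 2-fold apart when 1 library was left out. DESeq2 called 2201 genes higher and 2793 lower, of which 2120 and 2713 were also called by edgeR, and the replicate block gave 2334 and 2904. The stricter filter left 2 presomitic genes lower, 6 brain genes lower and 7 neural genes lower, since fewer members were tested, and presomitic genes that fell numbered 3 to 6 when 1 library was left out. Of 133 tested genes named in the text, 122 were called and 117 of these kept their call and direction in every setting that tested them. The 5 that lost the call in at least 1 setting (Cdx1, Meox1, Mir17hg, Ripply1, Tcf7l1) kept their direction in all of them. The uncalled genes Axin2, Fgfr1, Foxc2, Hbb-bh1, Mesp2, Sox3 gained a call in at least 1 setting. One uncalled gene changed sign: the log2 fold change of Lfng ran from -0.53 to 0.19 when 1 library was left out. The causes were not tested. With the replicate block Foxc2 (-0.51) and Sox3 (-0.35) gained a call and it changed no other call among the named genes. Genes with 3 counts or fewer in one tissue have fitted folds that depend on the prior count, which also bears on the medians of the Hox and brain lists, and depth limits their ratios.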

Other observations

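Of 17 endothelial genes, all tested, 8 rose and 3 fell, with a median log2 fold change (tail bud minus rest) of 0.22. The endothelial adhesion protein Pecam1 had 42.4, 48.9 and 49.5 CPM in tail bud, against 35.3, 33.3 and 35.6 CPM (0.43 ± 0.07, adjusted p = 0.000516), while Kdr, the VEGF receptor of endothelium and its precursors, fell to 107, 105 and 77.3 CPM in tail bud, against 126, 128 and 131 CPM (-0.40 ± 0.10, adjusted p = 0.00794). The list summed to 710.1, 734 and 679 CPM in tail bud and to 661, 644 and 667 CPM in the rest, and the number that rose was 4 without rest-of-embryo library 2. Primitive erythroid genes rose in 2 of 15 tested and fell in 0, against 13.2% higher and 16.7% lower over all genes tested. The number that rose was 0 without tail bud library 1 or 2 or rest-of-embryo library 1 or 3. With only the 6 libraries in the fit, 6 erythroid genes rose. Hbb-bh1, an embryonic beta-like globin, had 1106, 1601 and 1864 CPM in tail bud and 791, 1042 and 745 CPM in the rest (0.83 ± 0.39, adjusted p = 0.173). Reads of similar globin copies may be shared between them.

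Genes of matrix, metabolism and growth were the remaining groups. Over all genes tested, 13.2% were called higher in tail bud and 16.7% lower, the background for the counts of these lists. Collagen and matrix genes fell in 16 of 21, with a median of -0.94. Col2a1, the collagen of cartilage and notochord sheath, fell to 114, 122 and 101 CPM in tail bud, against 379, 426 and 378 CPM (-1.81 ± 0.12, adjusted p = 1.32e-07), whereas Fn1, fibronectin, rose (0.88 ± 0.10, adjusted p = 1.49e-05). Glycolytic genes rose in 10 of 17 and fell in 0, by small amounts (median 0.31), and 5 rose without rest-of-embryo library 3. Pfkl, a phosphofructokinase subunit, averaged 651 ± 38.7 CPM in tail bud and 460.0 ± 29.8 CPM in the rest (SD, n = 3 each; log2 fold change 0.50 ± 0.08, adjusted p = 0.000217), and the neuronal-type glucose transporter Slc2a3 rose most in the list (1.06 ± 0.16, adjusted p = 0.000527). Cell cycle genes mostly did not pass, with 2 higher and 5 lower of 21 tested (1 higher without rest-of-embryo library 3, and 2 lower without library 1 and 3 without library 2 or 3 of the rest of the embryo). Mycn, a MYC family factor of embryonic progenitors, rose (0.40 ± 0.06, adjusted p = 0.000244), alone of 17 MYC network genes, of which 3 rose without tail bud library 2 and 2 without library 3.

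In the let-7 and microRNA pathway 3 of 18 rose and 3 fell, near the 13.2% and 16.7% of all genes tested. In this list 7 rose without tail bud library 3, and 2 fell without any 1 rest-of-embryo library. Lin28a, an RNA-binding protein that blocks let-7 maturation, had 1000.1, 924 and 957 CPM in tail bud, against 594, 545 and 553 CPM (0.77 ± 0.08, adjusted p = 1.36e-05), and was higher in every tail bud library. Its paralogue Lin28b had 207, 201 and 193 CPM, against 308, 306 and 319 CPM (-0.64 ± 0.05, adjusted p = 5.76e-07). Mir17hg, the host transcript of the miR-17~92 cluster, had 127, 137 and 105 CPM in tail bud, against 143, 149.9 and 147 CPM (-0.25 ± 0.08, adjusted p = 0.0315), and its adjusted p ran from 0.00315 to 0.106 over 13 other settings, including the call lost without any 1 of the rest-of-embryo libraries. Levels of the mature microRNAs were not measured by these libraries. Primordial germ cell genes rose in 2 of 7 tested, or 1 without tail bud library 2 or rest-of-embryo library 1, and fell in 1. Of them Kit, the receptor of migrating germ cells, blood and pigment cells, rose (0.83 ± 0.09, adjusted p = 1.75e-05).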
